A study of Mus musculus with 670 samples.

Results

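The mitochondrially encoded genes were read in single mouse skeletal stem cells of 3 ages. The members were the rows of the count table whose symbol starts with mt-, 37 of 55604 gene rows. They comprised 13 protein-coding genes, 2 ribosomal RNA genes and 22 tRNA genes. Together they took 2.03% of all gene reads over the 670 wells. The cells were sorted by flow cytometry from digested long bones of male mice, without culture or treatment. They were postnatal day 3 (plate 9), 2 months (plates 1, 3 and 4) or 24 months old (plates 2, 5 and 12), with 95 or 96 wells on each plate. The labels name no strain, genotype or individual animal, so that an age counted as 1 sample and its plates gave only a descriptive spread. No test across ages was therefore made, and no p-value is given.

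The mitochondrial genome is a small circle that is transcribed from both strands into long precursor RNAs, which are cut apart largely at the tRNAs that lie between the other genes. Its mRNAs encode core subunits of the respiratory chain and of ATP synthase, its rRNAs form the mitochondrial ribosome, and all other proteins of the organelle come from nuclear genes. In single-cell work, a high share of mitochondrial reads is often taken as a sign of a damaged or emptied cell, and such cells are commonly removed. For that reason cells were chosen here without a limit on that share: wells with at least 1000 detected genes and at least 50000 gene reads are called cells below.

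The plates were filled unevenly. Postnatal day 3 gave 68 cells, the 2-month plates 1, 3 and 4 gave 16, 70 and 69, and the 24-month plates gave 5 each. The median depth was 1100487.5 gene reads for a postnatal day 3 cell, 675980 for a 2-month cell and 2733865 for a 24-month cell. The 8 genes of the list for the sort and for skeletal stem cells and cartilage, among them Acan, Col2a1 and Sox9, summed to 983 to 6502 CPM (summed counts of the cells of a plate, scaled to a fixed total of gene reads) on the 24-month plates and to 47106 to 66280 CPM on the other plates. On the postnatal day 3 and 2-month plates most of that sum was Col2a1, the cartilage collagen. Of the 8, Sox9, Cnmd, Acan, Col2a1 and Sp7 were lower at 24 than at 2 months by the size rule given with the first comparison, while Cd200, Runx2 and Itgav had higher means at 24 months (703, 698 and 49.9 CPM) than at 2 months (277.6, 123.5 and 18.9 CPM), with plates that overlapped. Of the 8 osteoblast markers, Bglap, Bglap2, Ibsp, Spp1, Dmp1 and Phex were lower at postnatal day 3 than at 2 months by the same rule (log2 folds of -6.64, -7.59, -3.84, -4.40, -7.97 and -4.55) and Col1a1 higher (1.84), and the list summed to 9914 to 58405 CPM over the 7 plates without separating the ages. The 5 pericyte and smooth muscle markers, mainly Acta2, summed to 351 CPM at postnatal day 3, to at most 0.27 CPM on the 2-month plates and to 54.4, 0.19 and 0 CPM on those of 24 months. The 5 markers of marrow stroma summed to 247.4 CPM at postnatal day 3. On plates 1, 3 and 4 they summed to 0.29, 166.3 and 71.2 CPM. On plates 2, 5 and 12 they summed to 22092, 4473 and 0 CPM. Most of the sum on plates 2 and 5 was Cxcl12 (19961 and 3611 CPM), while Lepr stood at 3.6 and 299.8 CPM there. The 8 blood markers summed to at most 33.9 CPM and the 6 endothelial markers to at most 16.3 CPM, with Cdh5 and Tek listed at 0 on every plate. The red cell markers reached 253.98 CPM on plate 1 and at most 1.40 CPM elsewhere. How far the cells' make-up entered the mitochondrial values was not tested. Batches 1, 2, 4 and 5 held 1 plate each and batch 3 held the postnatal day 3 plate with plates 2 and 12 of 24 months. For 2 months against either other age, batch and age cannot be told apart.

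Of the 13 mRNA genes, 9 have an annotated nuclear copy that is at least 95% identical over at least 200 bases, and several of these copies are long stretches of the same sequence. A block of 7 unprocessed pseudogenes on the minus strand of chromosome 1 (GRCm38, between 24611535 and 24616197) copies part or all of mt-Co1, mt-Co2, mt-Atp6, mt-Co3, mt-Nd3, mt-Nd4l and mt-Nd4. Gm28437 (24613189 to 24613971) matches 783 of the 784 bases of mt-Co3 with 0 mismatches, and Gm10925 and Gm28661 match mt-Atp6 and mt-Co2 with 0 mismatches over 678 and 681 bases. Gm28439 holds the first 876 of 1378 bases of mt-Nd4, and Gm29216 the last 483 of 1545 bases of mt-Co1 with 1 mismatch. The sequences below, from the GENCODE transcripts and read 5′ to 3′ on the strand of each gene, show how little there is to tell the members from their copies. In the first pair the capital marks the mismatch, A1066T counted from the first base of mt-Co1; Gm29216 aligns from base 1063 of the gene onward, and its bases before that are not part of the alignment. In the second pair it marks T3C of mt-Nd3, and in the third the single base by which mt-Co3 outruns Gm28437.
mt-Co1, chrM:6363-6423, plus strand: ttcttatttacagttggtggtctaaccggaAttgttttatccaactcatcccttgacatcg
Gm29216, chr1:24616155-24616197, minus strand: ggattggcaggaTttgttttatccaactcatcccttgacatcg
mt-Nd3, chrM:9459-9491, plus strand: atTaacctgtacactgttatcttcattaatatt
Gm28438, chr1:24613087-24613119, minus strand: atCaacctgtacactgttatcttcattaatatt
mt-Co3, chrM:9330-9390, plus strand: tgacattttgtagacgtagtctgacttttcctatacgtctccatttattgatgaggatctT
Gm28437, chr1:24613189-24613248, minus strand: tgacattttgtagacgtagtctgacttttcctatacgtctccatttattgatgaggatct

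The deposited counts divide reads between these pairs very unequally. For mt-Co3, subunit III of cytochrome c oxidase, 89.1% of the reads of gene and copy stood at Gm28437, from 77.1% on plate 1 to 100% on plate 12. In CPM of summed reads, mt-Co3 stood at 93.99 at postnatal day 3, at 251.2, 157.9 and 184.1 on the 2-month plates and at 237.3, 154.9 and 0 on the 24-month plates, while Gm28437 stood at 966, at 844, 1486 and 1572, and at 1213, 1538 and 621. The pseudogene row was thus above the row of the gene on each of the 7 plates. mt-Nd4l and mt-Nd3, small membrane subunits of complex I, gave 96.7% and 84.9% of a few reads to their copies. The copy took 40.3% for mt-Atp6 (26.4% to 86.1% by plate), 30.3% for mt-Co2 (18.4% to 43.9%) and 16% for mt-Co1 (12% to 22.8%). It took 2.17% for mt-Nd4, with 16.2% on plate 1, and well below 1% for mt-Nd2 and mt-Nd5. Over all cells the copies held 643673 reads against 2324032 of the 37 members, or 27.7 for every 100. These identical stretches cannot be told apart by sequence, so levels of mt-Co3, mt-Nd3, mt-Nd4l, mt-Atp6, mt-Co2 and mt-Co1 are uncertain in this table.

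**Figure D1:**
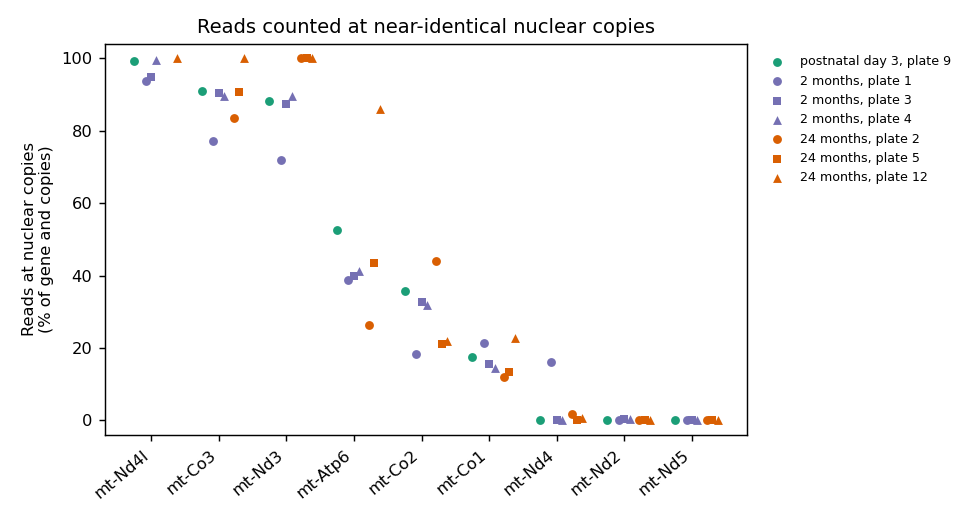
Share of the reads of a mitochondrial gene and its annotated nuclear copies that the table counts at the copies (y axis, %), for 9 genes (x axis) and each plate (one point a plate, colour for age, no point where neither had a read). mt-Nd4l, mt-Co3 and mt-Nd3 lie above 70% on every plate with reads, mt-Atp6, mt-Co2 and mt-Co1 between 12% and 86.1%, and mt-Nd2 and mt-Nd5 near 0.

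The division also differed from cell to cell. mt-Co3 had a read in 62 cells (26.1%) and Gm28437 in 96.6% of cells. Of the cells with at least 20 reads over the pair, 72.7% gave every read to the pseudogene, 62 cells divided them and 0 gave all to mt-Co3. For mt-Nd4 it was the reverse: nearly all such cells gave every read to the mitochondrial gene, 3 cells, all on plate 1, gave every read to Gm28439 and 1 cell divided them. mt-Atp6 with Gm10925 went wholly to the copy in 28 cells and wholly to the gene in 23, and mt-Co2 with Gm28661 in 43 and 47 cells. In the other cells with at least 20 reads these pairs were divided. Absence of mt-Co3 from a cell in this table is therefore no measure of that cell's transcript. With every cell thinned to 50000 reads, mt-Co3 was detected in 20.6% of postnatal day 3 cells, 27.1% of 2-month cells and 40% of 24-month cells. The exact 95% binomial intervals were 11.7 to 32.1, 20.3 to 34.8 and 16.3 to 67.7, covering counting error only. The same cells had it without thinning. At 24 months they were 3 of 5 cells on plate 2, 3 of 5 on plate 5 and 0 of 5 on plate 12. mt-Co1 of the same complex was detected in 98.5%, 96.1% and 100% of the thinned cells of the 3 ages. Across cells, cells with a high mitochondrial share tended to have a high share of the copies (Spearman's rho 0.80 on plate 9, 0.74 on plate 3, 0.81 on plate 4 and 0.55 over the 16 cells of plate 1; the 2 shares have the same total of reads).

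The tRNA genes were nearly silent in this assay. Their 22 rows, 59 to 75 bases long, held 352 reads over all wells, and 13 had no read anywhere. A single row, that of the serine tRNA gene mt-Ts1, held 322 of the 352 and had reads in 64 cells (26.9%). Whether these reads came from the tRNA itself or from RNA of the other strand was not tested. mt-Ts1 lies on the minus strand at chrM:6870-6938 and shares its last 3 bases with the end of mt-Co1 on the plus strand. Its sequence is shown because it is the one tRNA row with more than 10 reads.
mt-Ts1: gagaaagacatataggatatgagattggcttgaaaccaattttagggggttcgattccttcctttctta
No statement on strand is among the sources used here, so reads where genes of opposite strands overlap cannot be told apart: this touches mt-Ts1 with mt-Co1, mt-Ti with mt-Tq (3 bases) and the 14 bases shared by mt-Nd5 and mt-Nd6. On the same strand, mt-Atp8 and mt-Atp6 share 43 bases and mt-Nd4l and mt-Nd4 share 7.

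Cytochrome c oxidase subunit I led the mitochondrial reads. mt-Co1, which carries the oxygen-reducing centre of complex IV, was the most abundant member in 84.5% of cells, against 19 cells for mt-Rnr2 and 12 for mt-Cytb. It stood at 3064 CPM at postnatal day 3, at 4225, 5333 and 5707 on plates 1, 3 and 4 of 2 months, and at 4210.0, 2664 and 954 on plates 2, 5 and 12 of 24 months, an order of plates kept in the sentences that follow. Every 2-month plate was above every other plate, by a narrow margin over plate 2. mt-Co2, the subunit that accepts electrons from cytochrome c, had 154.96 CPM at postnatal day 3, then 704, 250.3 and 279.3 on the 2-month plates and 156.95, 203.7 and 153.01 on those of 24 months. Here too each 2-month plate lay above the rest, with plate 1 far above the other 2-month plates.

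mt-Cytb, the cytochrome b of complex III and that complex's sole mitochondrially encoded subunit, had 707 CPM at postnatal day 3, then 1871, 1787 and 2428 on the 2-month plates and 2647, 3549.7 and 230.8 on those of 24 months. The 24-month plates thus spanned both the highest and the lowest value of all. mt-Atp6, the proton-channel subunit of ATP synthase, had the same arrangement: 237.7 CPM at postnatal day 3, then 950.0, 769.6 and 1042 at 2 months, and 1610.0, 1187 and 20.5 on the oldest plates. mt-Atp8, its short partner, ran from 1.68 CPM on plate 12 to 15.5 CPM on plate 2.

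Among the 7 complex I subunits, mt-Nd1 had 121.3 CPM at postnatal day 3, then 429.6, 279.1 and 391 on the 2-month plates and 644, 156.1 and 78.2 on those of 24 months. mt-Nd4 had 183.6 CPM, then 317, 309 and 359, then 48.3, 198.4 and 152.6. mt-Nd5 had 172.01 CPM, then 540.6, 270.3 and 307, then 289, 576 and 131.6. mt-Nd4 was the member of this complex whose 2-month plates lay closest together and above all others, while the 24-month plates of mt-Nd1 and mt-Nd5 spread across those of 2 months. mt-Nd2 had 20.5 CPM at postnatal day 3, then 109.2, 59.03 and 74.5, then 18.6, 121.5 and 1.51. mt-Nd6, the mRNA of the other strand, never exceeded 7.20 CPM, and mt-Nd3 and mt-Nd4l never exceeded 3.48 and 0.87 CPM. At 24 months mt-Nd3 and mt-Nd4l were listed at 0 on all 3 plates, while their copies held reads there: Gm28438 had 22, 3 and 13 reads, and Gm10222 had 0, 0 and 25.

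The rRNAs differed widely between plates of one age. mt-Rnr2, the large-subunit 16S rRNA, had 392 CPM at postnatal day 3, then 3583, 1328 and 1509 on the 2-month plates and 3720.1, 342 and 129.8 on those of 24 months. mt-Rnr1, the small-subunit 12S rRNA, had 32.9 CPM, then 2276, 89.1 and 97.4, then 469.7, 76.96 and 33.9. Plates 1 and 2, of different ages and batches, were the high ones in both genes, and the names of the wells on these plates share a prefix that no other plate has. In the median cell the rRNAs made up 39.1% of mitochondrial reads on plate 1 and 35.2% on plate 2, against 6.90% on plate 9, 11.5% and 11.8% on plates 3 and 4, and 3.36% and 9.18% on plates 5 and 12. The cells of plate 1 were not alike. In its 7 cells with at least 10 CPM of Cnmd the median rRNA share was 10.9%, and in its 9 other cells 65.3%. The median depth of these sets was 2052001 and 101430 gene reads.

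**Figure D2:**
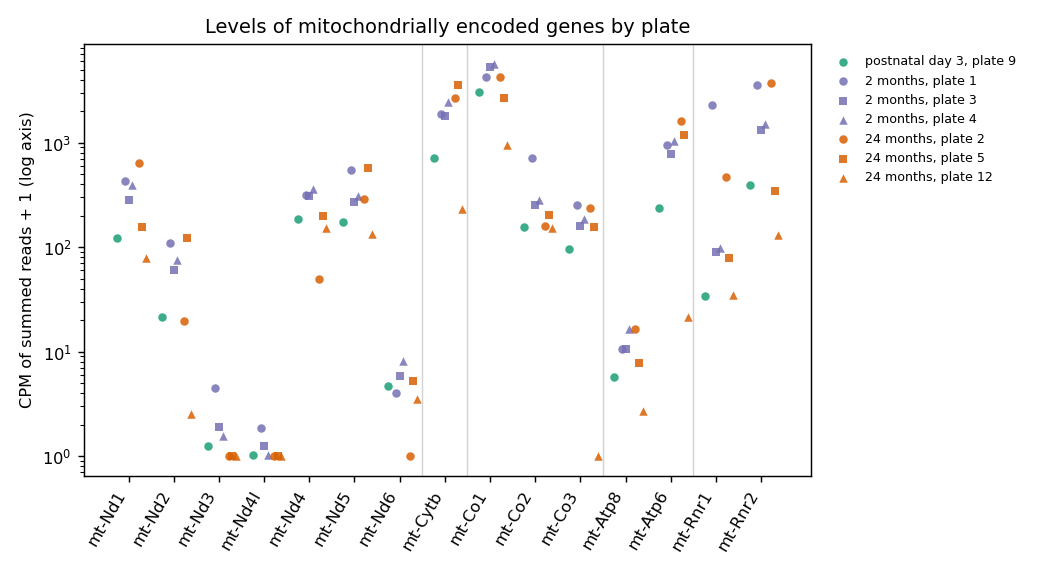
CPM of summed reads plus 1 (y axis, log) for the 13 mRNA genes and 2 rRNA genes (x axis, grouped by complex), one point a plate, coloured by age. mt-Co1 is the highest mRNA on 6 of the 7 plates, mt-Cytb on plate 5, and plates 1 and 2 are the highest in mt-Rnr2.

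Per kilobase of gene, the order at 2 months was mt-Co1 (mean 3294 CPM per kb over 3 plates, range 2735 to 3694), mt-Cytb (1773), mt-Rnr2 (1353), mt-Atp6 (1352), mt-Rnr1 (859.5), mt-Co2 (601), mt-Nd1 (383), mt-Co3 (252.2), mt-Nd4 (238.3), mt-Nd5 (204.3), mt-Nd2 (77.9), mt-Atp8 (56.5), mt-Nd6 (9.70), mt-Nd3 (4.71) and mt-Nd4l (1.28). mt-Co1 stood apart from mt-Cytb on every plate. From mt-Cytb down to mt-Nd5, the ranges of neighbours overlapped over the plates. Taken plate by plate, mt-Nd1 was above mt-Co3 on all 3 plates, and the other neighbours changed order between plates. Without the reads of the copies, mt-Cytb was above mt-Atp6 on every plate. With those reads added this order was reversed on each of them. mt-Atp6 then stood at 2282, 1883 and 2604 CPM per kb on plates 1, 3 and 4, and mt-Cytb at 1635, 1562 and 2122. Genes further apart could be ordered. The range of mt-Cytb (1562 to 2122) lay wholly above that of mt-Nd5 (148.2 to 296.4). Adding the reads of the copies moved mt-Co3 from the eighth place to the third (1911 CPM per kb) and mt-Atp6 to the second (2256 CPM per kb). At postnatal day 3, on its single plate, mt-Co3 moved from 119.9 to 1353 CPM per kb in the same way, behind mt-Co1 alone.

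By complex, the mitochondrial reads of postnatal day 3 cells were 63.8% complex IV, 13.6% complex III, 9.66% complex I, 4.67% complex V and 8.195% rRNA. At 2 months complex IV took 45.9% ± 10.6 (SD over 3 plates) and rRNA 21.5% ± 14.6, and at 24 months they took 41.3% ± 14.9 and 14.3% ± 13.5. Complex I was the steadiest class at 2 months, at 9.02% ± 0.30, and ranged from 7.11% to 19.4% at 24 months. mt-Co1 alone made up 59.04% of mitochondrial reads at postnatal day 3, above all 6 other plates, which ran from 27.7% to 50.5%. mt-Cytb reached 38.4% on plate 5 and lay between 12.2% and 19.6% on the others. These shares of summed reads weigh deep cells more than shallow ones.

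**Figure D3:**
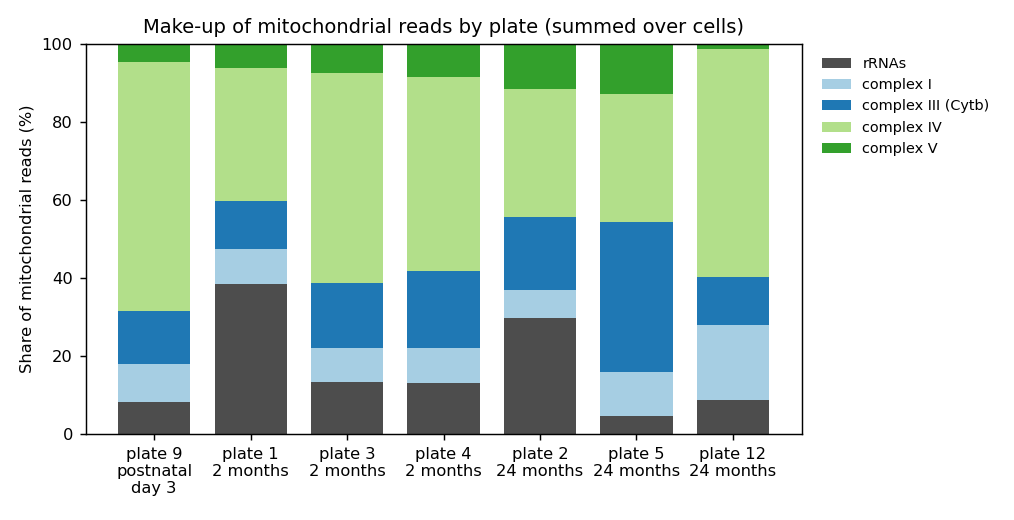
Share of mitochondrial reads (y axis, %) by class of gene, summed over the cells of each plate (x axis, with age), without the reads of the nuclear copies. The rRNA segment is 38.4% on plate 1 and 29.8% on plate 2 and at most 13.3% on the other plates, and complex IV is largest on plate 9 at 63.8%.

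The first comparison set postnatal day 3 against 2 months. The median cell at postnatal day 3 had 0.342% of its gene reads in mitochondrial genes, and the median cells of plates 1, 3 and 4 had 1.30%, 0.845% and 1.03%, a mean of 1.06% ± 0.23 (SD, n = 3 plates). The postnatal day 3 value was below each 2-month plate, with a log2 ratio of -1.63. Single cells overlapped widely: they ran from 0.00355% to 4.38% at postnatal day 3 and from 0.0729% to 50% at 2 months. Under 1% of reads were mitochondrial in 61 of 68 cells (89.7%) at postnatal day 3 and in 84 cells (54.2%) at 2 months, and 5% or more in 0 and 14 cells.

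Genes were called by size: a mean of at least 10 CPM at the higher age, a ratio of means of at least 2 and plates of the ages that do not overlap. Log2 folds were taken on CPM with a pseudocount of 1. Of the 15 mRNA and rRNA genes, 12 reached 10 CPM at either age, 10 of these were called lower at postnatal day 3 than at 2 months and 0 higher; 10.2% of all 9659 genes that reached this level were called lower and 28.1% higher. The median log2 fold of the 12 was -1.46, and that of all 9659 was 0.23. All classes took part: both rRNAs (mt-Rnr1 -4.60, mt-Rnr2 -2.44), both ATP synthase genes (mt-Atp6 -1.95, mt-Atp8 -1.14), mt-Cytb (-1.52), mt-Nd1, mt-Nd2 and mt-Nd5 (-1.59, -1.93 and -1.11), and mt-Co2 and mt-Co3 (-1.40 and -1.06). mt-Co1 (-0.73) and mt-Nd4 (-0.84) were also below every 2-month plate but by less than the required ratio. The value of mt-Rnr1 rested on plate 1: without that plate it was -1.47, and mt-Nd5, mt-Co2 and mt-Co3 were no longer called, leaving 7 of the 10. With the reads of the copies added, mt-Co3 moved to -0.50 and was no longer called, and the other 9 still were. Among cells with at least 2000 genes and 200000 reads, mt-Atp6 and mt-Rnr2 alone were called, both lower. Of all genes, 1517 were called lower and 2864 higher in that setting, and 1883 and 2450 without plate 1.

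The second comparison set 24 months against 2 months. The medians of plates 2, 5 and 12 were 1.39%, 0.945% and 0.142%, a mean of 0.827% ± 0.634 (SD, n = 3 plates), and the log2 ratio to 2 months was -0.36. The plates of the ages overlapped, and the 24-month plates differed from one another by more than they did from 2 months: plate 2 was above all 2-month plates and plate 12 below all of them. Without plate 12 the ratio turned to 0.14. The 5 cells of plate 12 ran from 0.113% to 0.375%, those of plate 2 from 0.941% to 1.82%, and those of plate 5 from 0.277% to 1.45%.

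mt-Nd4 (-1.30) and mt-Co2 (-1.26) were called lower at 24 months and 0 members higher, of 12 tested; 30.4% of all 8807 genes tested were called lower and 1.56% higher. The median log2 fold was -0.60 for the 12 members and -1.57 for all genes tested. mt-Co1 (-0.96) was just short of the required ratio, and with the reads of its copies added it reached -1.01 and was called. mt-Cytb (0.08) and mt-Atp6 (0.03) had means close to those of 2 months with plates far apart on both sides. Without plate 2, 7 members were called lower, mt-Nd4 not among them. The count over all genes without plate 2 is not given here. Without plate 1, or without the cell described below, mt-Co2 was no longer called.

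The third comparison set 24 months against postnatal day 3, where batch 3 held plates of both ages. The log2 ratio of the shares was 1.27, with overlapping plates. Within batch 3 the postnatal day 3 plate had 0.342% and lay between plate 2 with 1.39% and plate 12 with 0.142%. mt-Rnr1 was called higher at 24 months (2.52), the lowest 24-month plate being at 33.9 CPM and postnatal day 3 at 32.9, and 0 members were called lower, of 11 tested; 56.3% of all 9062 genes tested were called, 2.62% higher and 53.7% lower. The median log2 fold was 1.17 for the 11 members and -1.94 for all genes tested. Without plate 2 no member was called, and without plate 12 there were 7, all higher, among them mt-Atp6 (2.55) and mt-Cytb (2.13). The count over all genes without plate 12 is not given here. This comparison shares the postnatal day 3 plate with the first and the 24-month plates with the second.

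**Figure D4:**
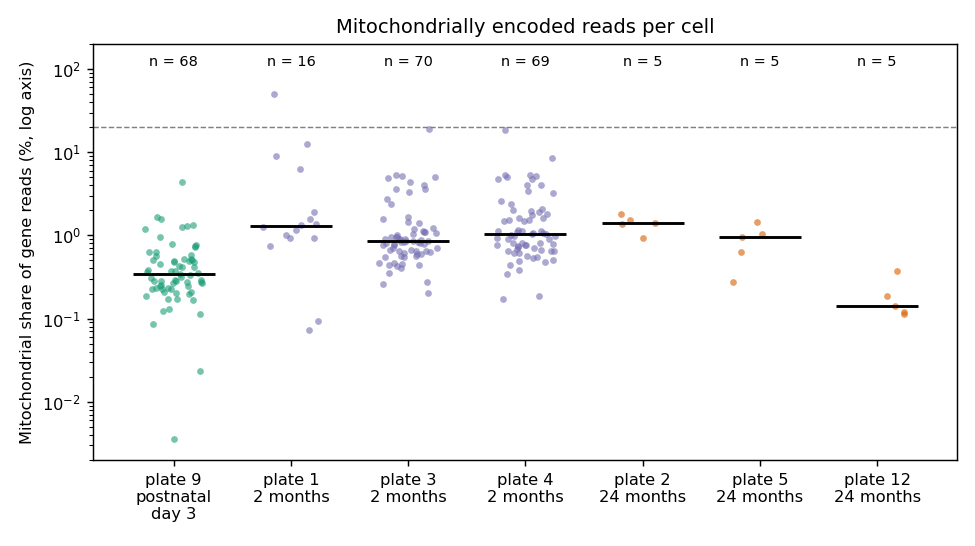
Mitochondrial share of gene reads (y axis, %, log) of each cell (points) by plate and age (x axis), with the plate's median as a bar and the 20% limit dashed. The median of plate 9 (0.342%) lies below those of plates 1, 3 and 4, and the medians of the 24-month plates run from 0.142% to 1.39%.

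A limit of 20% mitochondrial reads would have removed 1 cell, a 2-month cell of plate 1 with 50% of its 100111 gene reads in mitochondrial genes and 1701 genes detected. The rRNAs made up 84.7% of its mitochondrial reads, mt-Rnr1 by itself 36.5%. The next cells stood at 18.8% and 18.4%, so the limit falls in a thinly filled stretch. Without that cell, mt-Rnr1 at 2 months fell from a mean of 821 to 529 CPM over plates and mt-Co2 from 411 to 328 CPM. Counting the nuclear copies with the members would place 3 cells above the limit instead of 1.

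The limit acted on wells that the gene threshold had already removed. Of the 529 wells with at least 1000 gene reads, 63 had 20% or more mitochondrial reads, 62 of these had fewer than 1000 genes and 58 fewer than 500. They were 0 of 84 wells at postnatal day 3, where the exact 95% upper limit is 4.30%, 31 of the 2-month wells and 32 of the 24-month wells. Plate 1 had 26 of 71 wells (36.6%; exact 95% binomial interval 25.5 to 48.9, counting error only) and plate 2 had 17 of 60 (28.3%; 17.5 to 41.4), so these plates held 43 of the 63. The other 2-month plates had 4 of 95 and 1 of 92, and the other 24-month plates 7 of 57 and 8 of 70. The highest share was 99.7%. In these 63 wells the median of spike-in reads was 88.2% of all reads, and mt-Rnr2 led in 26 and mt-Co1 in 11.

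At 2 and 24 months, wells under 500 genes had a larger median mitochondrial share than wells with 1000 to under 2000 genes on each of the 6 plates, while at postnatal day 3 they had a smaller one. On plate 3 the median share was 3.97% in 7 wells under 500 genes, 13.1% in 12 wells with 500 to under 1000 genes, 0.967% in 45 with 1000 to under 2000 and 0.714% in 31 with 2000 or more. On plate 4 these medians were 5.54%, 5.79%, 1.12% and 0.753%. On plate 1 the 38 wells under 500 genes had a median of 37.1%, against 1.30% in the 14 with 1000 to under 2000 genes and 6.28% in the 2 wells above that. On plate 2 the 39 wells under 500 genes had 11.4%, against 1.47% in 4 wells with 1000 to under 2000. On plates 5 and 12 the wells under 500 genes had 4.76% and 0.458%, against 0.945% and 0.142% in the 5 wells of each with 1000 to under 2000. At postnatal day 3 the 12 wells under 500 genes had a median of 0.395%, against 0.475% and 0.336% in the wells with 1000 to under 2000 and with 2000 or more genes. No well of this plate exceeded 4.38% at any number of genes. With all 529 wells, the share at postnatal day 3 (0.325%) was further below 2 months (3.34% ± 4.02, SD over 3 plates), with a log2 ratio of -3.36. That change rested on plate 1, whose median was 7.98% over these wells and 1.30% over its cells. Plates 3 and 4 had 0.893% and 1.15% over these wells, and 0.845% and 1.03% over their cells. Of the members, 11 were called higher at 24 months than at postnatal day 3, beside 759 higher and 3577 lower of all genes.

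**Figure D5:**
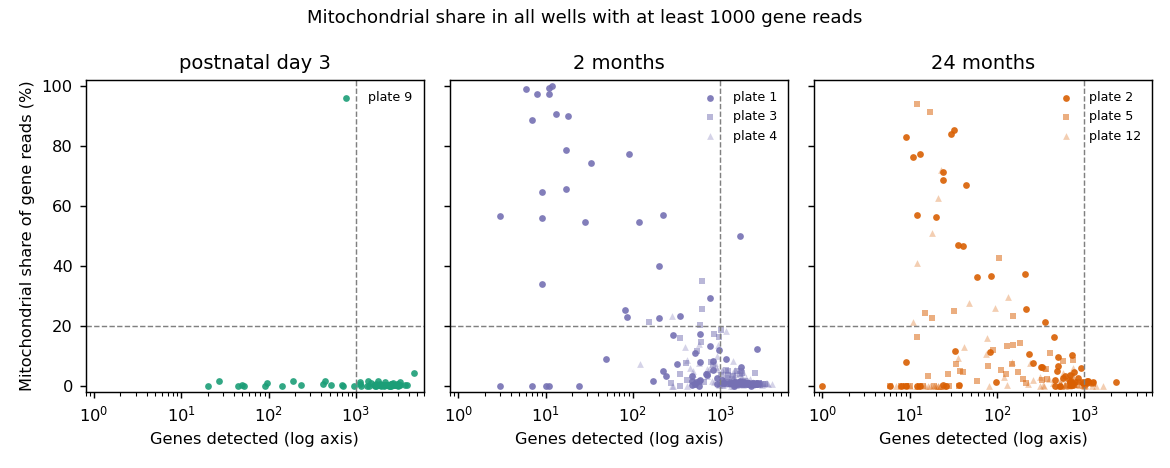
Mitochondrial share of gene reads (y axis, %) against genes detected (x axis, log) in the 529 wells with at least 1000 gene reads, one panel an age and one symbol a plate, with the thresholds of 1000 genes and 20% dashed. The wells above 20% lie left of 1000 genes with 1 exception on plate 1, and none is at postnatal day 3.

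Among the cells themselves the same lean was present on 2 of the 3 plates of 2 months. Over the 70 cells of plate 3 and the 69 of plate 4, Spearman's rho of the mitochondrial share was -0.43 and -0.31 with genes detected and 0.58 and 0.55 with the share of spike-in reads, a measure that falls with the amount of cellular RNA where wells receive like amounts of spike-in RNA. Over the 16 cells of plate 1 it was 0.06 and 0.30. At postnatal day 3 it was 0.08 and 0.05 over 68 cells. These are descriptions over cells that share a plate and whose shares have overlapping totals. The mRNAs moved together in part: over 6 of them (mt-Nd1, mt-Nd4, mt-Nd5, mt-Cytb, mt-Co1 and mt-Atp6), the median rho of a pair was 0.36 on plate 9, 0.50 on plate 1, 0.35 on plate 3 and 0.39 on plate 4. mt-Co1 and mt-Cytb were among the closest pairs, at 0.49, 0.84, 0.57 and 0.72.

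Cells with cartilage character were compared through Cnmd, the gene of chondromodulin. The median mitochondrial share in cells with at least 10 CPM of Cnmd and in the remaining cells was 0.325% and 0.379% on plate 9, 1.33% and 1.27% on plate 1, 0.851% and 0.805% on plate 3 and 1.06% and 0.910% on plate 4. The differences were small beside the range within either set. No 24-month cell had 10 CPM of Cnmd, so that the ages could not be matched on it.

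Nuclear genes that serve the mitochondrial genome were given by lists. Of the genes of mitochondrial DNA transcription and replication, 15 of 18 were tested between postnatal day 3 and 2 months, 5 were called higher at postnatal day 3 (Polrmt, Polg2, Twnk, Mgme1 and Top1mt) and 1 lower (Mterf4), beside 28.1% and 10.2% of all genes, with a median log2 fold of 1.15 against 0.23 for all genes. Polrmt, the polymerase that transcribes the mitochondrial genome, had 30.9 CPM at postnatal day 3 and 0, 0 and 26.2 on the 2-month plates. Twnk, the replicative helicase, stood at 46.1 CPM, then at 15.1, 32.85 and 11.8. Tfam, which packages mitochondrial DNA and starts its transcription, stood at 25.95 CPM, then at 11.3, 4.38 and 27.6, and was not called.

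Of the genes of mitochondrial RNA processing, tailing and turnover, 3 of 15 tested were called higher at postnatal day 3 (Elac2, Fastk and Fastkd2) and 0 lower, with a median of 0.08. Lrpprc, which stabilises mitochondrial mRNAs, had 20.98 CPM at postnatal day 3, then 0, 27.01 and 16.7 on the 2-month plates and 0, 122.96 and 0.89 on those of 24 months. Of the translation factors and tRNA synthetases, 3 of 19 were called higher (Mtif3, Yars2 and Rars2) and Tars2 lower, with a median of -0.28. Of the regulators of mitochondrial biogenesis, 2 of 7 were called higher (Gabpa and Esrra), and Ppargc1a never exceeded 1.93 CPM. Of the stress response genes, 2 of 8 were called higher (Lonp1 and Asns), and of the mitophagy, fission and fusion genes 1 of 9 (Opa1). Of all genes tested in this comparison, 28.1% were called higher and 10.2% lower, and no difference of these lists from that background is claimed.

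Between 24 and 2 months, these lists held lower calls and no higher ones: 3 of 9 (Mterf4, Polg and Twnk), 6 of 15, 5 of 18, 2 of 6, 3 of 8 and 2 of 9 in the order above, beside 30.4% of all genes. Many of these calls rest on rows at 0: of the tested genes of the first 3 lists, 5 of 9, 8 of 15 and 12 of 18 were listed at 0 on all 3 plates of 24 months, as were 33.7% of all genes tested, and 0 of the 12 mitochondrial members. Mterf4 had 867, 67.3 and 141.1 CPM on the 2-month plates and was at 0 on those of 24 months, and Fastk had 50.1, 134.5 and 61.9 CPM and was likewise at 0. Tfam stood at 11.9, 0 and 371 CPM on plates 2, 5 and 12, a spread that leaves no order against 2 months. Hspd1, the mitochondrial chaperonin, had 84.9, 92.4 and 143.5 CPM on the 2-month plates and 0.14, 24.1 and 0 on those of 24 months, and Pink1, a kinase of mitophagy, had 252.6, 130.8 and 208.2 CPM, then 0, 0.28 and 0. With 5 cells a plate, a gene seen in few cells is easily missed. Whether the rows at 0 came from few cells, from the cells' make-up or from lower levels was not tested.

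Long nuclear RNAs that stay in the nucleus were listed as a counterpart to the mitochondrial RNAs. Malat1 had 1307 CPM at postnatal day 3, then 6594, 5779.9 and 5603 on the 2-month plates and 15334, 6031 and 2269.6 on those of 24 months. Like the mitochondrial share, it was lower at postnatal day 3 than on every 2-month plate (log2 fold -2.20), and among the 24-month plates it was highest on plate 2 and lowest on plate 12. Neat1 (-2.69) and Kcnq1ot1 (-1.51) were called lower at postnatal day 3 as well, and Meg3 higher. These 3 did not have that order on plates 2, 5 and 12: Neat1 stood at 625, 840.4 and 768 CPM, Meg3 at 0, 32.9 and 0, and Kcnq1ot1 at 0, 288.7 and 0.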

How the data were processed

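Single cells were profiled by SmartSeq2, per the labels' protocols, and bcl2fastq 2.18, STAR 2.4, RSEM 1.2.21 and the build GRCm38.p6 stand in the submitters' processing notes; the annotation is not given in the sources used here. The authors deposited a table of estimated counts per gene and well (RSEM divides a read that matches several transcripts between them), of which 15.1% of nonzero gene values are not whole. Values were rounded here, 92 spike-in rows were kept out of totals, and 1 column that no sample's labels match was not used. Column names of plate 4 carry a different prefix from the titles and were matched by plate, well and index sequences.

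Cells needed 1000 genes and 50000 gene reads. CPM is the summed count of a plate's cells over their total gene reads, and an age is the mean of its plates. The number of animals is not given, so spreads between plates may be technical. Reads carry no molecular identifiers, and no doublet caller was run. Copies were found with blastn 2.17.0 among 141730 GENCODE M21 transcripts. Python 3.11.15, pandas 2.3.3, scipy 1.17.1 and edgeR 4.0.16 (TMM factors only) were used, and the size rule was checked on simulated counts. The simulated ages had equal numbers of plates and little spread between them, unlike these data, so that check gives no rate of false calls here. Named nuclear genes were Tfam, Polrmt, Lrpprc, Ppargc1a and called genes of each list; Hspd1, Pink1 and the nuclear RNAs were chosen from their lists after their values were seen. The members and lists were chosen with earlier results of these data known. Alternatives changed cell thresholds, scaling, the pseudocount, the low-value filter, rounding and the plates; adding the reads of the copies was chosen after seeing the data.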

Additional observations from a re-analysis of the deposited data

How the results depend on the processing

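The share at postnatal day 3 lay below every 2-month plate under each alternative run, with log2 ratios of -1.77 to -1.45 when a plate was left out, -3.36 with every well of at least 1000 gene reads, -1.96 with at least 500 genes, -1.10 with at least 2000 genes and 200000 reads, -1.96 with 1000 to 1700 genes and -1.30 from summed reads. The size of the ratio of -3.36 rested on plate 1. Members called there numbered 7 to 10 without a plate, each lower, and 2 with at least 2000 genes, a setting that leaves plate 1 without a cell and 24 months with 1 cell; it turned mt-Nd5 and mt-Co2 to 0.11 each, and 1000 to 1700 genes turned mt-Co3 to 0.18. For 24 against 2 months, leaving out a plate gave share ratios from -0.96 (without plate 2) to 0.14 (without plate 12). The calls then ran from 2 to 7. The share ratio left that range in wells with 2000 or more genes. Their median share was 1.37% in the 1 well of plate 2, and 0.714% and 0.753% on plates 3 and 4. Plate 1 had 6.28% in 2 wells, which the limit of 200000 reads removed. There was 1 call with cells under 20% mitochondrial reads, and 0 with every well or with at least 500 genes. There were 4 with no minimum CPM and 6 (5 higher, 1 lower) with at least 2000 genes. In those settings mt-Co2 turned to 0.30 (500 genes) and mt-Nd4 to 0.22 (2000 genes). Of all genes, 382 were called higher and 1620 lower with every well, and 319 and 1745 with at least 500 genes. With at least 2000 genes they were 1093 and 5627. For 24 months against postnatal day 3, leaving out a plate gave share ratios from 0.67 to 1.77. The calls then ran from 0 (without plate 2) through 2 (without plate 5) to 7 (without plate 12). With every well the ratio was above that range, with a mean of plate medians of 2.48% at 24 months and 0.325% at postnatal day 3. There were 11 calls with every well, 6 with at least 500 genes, 7 with at least 2000 genes and 2 with 1000 to 1700 genes. There were 3 with no minimum CPM, and 0 with TMM factors or the mean over cells. Of all genes in this comparison, 628 were called higher and 3664 lower with at least 500 genes. With at least 2000 genes they were 1070 and 6802, and with 1000 to 1700 genes 336 and 2299. The cause of the changes between settings was not tested. TMM factors moved the median of all genes by -0.29, -0.13 and -0.09. Plate 9 is the sole plate of its age and could not be left out. No paired analysis was possible because the labels give no replicate numbers that the ages share and no test was made. With 5 cells a plate, the 24-month values limit both comparisons that use them.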
